A study of Mus musculus with 9 samples.

Results

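The genes described here encode the proteasome, its regulatory particles and the immunoproteasome. They are the 44 protein-coding genes, of 54532 genes in the expression table, whose symbols begin with Psma, Psmb, Psmc or Psmd and a number, or are Psme1, Psme2, Psme3 or Psme4. They comprise 8 alpha-ring genes of the 20S core, 4 non-catalytic and 3 constitutive catalytic beta-ring genes, 3 inducible catalytic genes and 1 thymus catalytic gene. The regulatory genes comprise 6 ATPases and 11 non-ATPase subunits of the 19S particle, 3 chaperones that assemble it, the 11S pair Psme1 and Psme2, and the activators Psme3 and Psme4. Psmc3ip meets the rule by its symbol but encodes a recombination cofactor that is no part of the proteasome, and it is counted with the members and named where it was called. RNA was sequenced from 9 aortas of Apoe-/- mice, which lack apolipoprotein E and develop atherosclerosis. The animals are given as 6 to 8 weeks old and the regimen as 24 weeks long. Each of 3 groups held 3 aortas: chow diet (CD), high fat diet (HFD), and high fat diet with ammonium iron(III) citrate injected into the peritoneum (HFD_IO). All 3 groups carry the Apoe mutation, no group received iron on chow, and no wild-type aorta was analysed here. The series asks, by its title, what iron overload does to gene expression in atherosclerosis.

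The proteasome is the large protease that degrades proteins tagged with ubiquitin. Its barrel, the 20S core, is built of alpha and beta rings, and Psmb5, Psmb6 and Psmb7 are the beta subunits that cut peptide bonds. The 19S particle caps the barrel, binds ubiquitin chains, removes them and unfolds the substrate with its ring of ATPases. Interferon gamma induces Psmb8, Psmb9 and Psmb10, which replace Psmb5, Psmb6 and Psmb7 during assembly and give the immunoproteasome, as well as Psme1 and Psme2, which form the 11S cap that favours the production of peptides for MHC class I. Immune cells such as lymphocytes and macrophages, which enter the atherosclerotic vessel wall, carry more immunoproteasome than most other cells.

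The recovered read totals lay between 16660963 and 18308450 per library, and levels are given in FPKM, that is, sequenced fragments divided by exon length in kilobases and by a factor for each library. That factor did not follow the recovered read totals. The read total times the FPKM of 1 read in a gene of 1 kb, which would be equal in all libraries if it did, was 0.908 to 0.958 of its mean over the 9 libraries in CD, 1.00 to 1.12 in HFD and 0.992 to 1.01 in HFD_IO. No smooth muscle, endothelial or adventitial fibroblast marker was at 0 in all libraries. The same held for the skeletal muscle, brown adipocyte and B cell markers, so detection alone does not test the tissue label. Levels of cell type markers differed between the groups. The summed FPKM of 10 macrophage markers was 594 to 681 in CD, 2978 to 4988 in HFD and 4779 to 8194 in HFD_IO, and that of 7 smooth muscle markers was 5262 to 5863, 6791 to 7915 and 2390 to 4106. The sum of 7 endothelial markers was 387 to 565 in CD, 122 to 236 in HFD and 253 to 299 in HFD_IO. That of 6 adventitial fibroblast markers was 801 to 1017, 1239 to 1439 and 1037 to 1150, but these markers did not move together. In HFD against CD, Lum, Dcn and Dpt changed by 2.67, 0.97 and 0.49 (log2), and Pi16, Col1a1 and Pdgfra by -0.60, -0.35 and -0.32. Of these, Lum and Dcn were called (limma, adjusted p under 0.05). The part of endothelial cells and fibroblasts in the members' levels was not tested. In bulk tissue, fewer cells of a type and less RNA per cell cannot be told apart. Library CD_1 stood apart within its group: 34 of the 42 tested members were highest there, as were 41.9% of all 13883 tested genes.

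Constitutive and inducible genes differ in the control elements known for them, and stretches of the RefSeq promoter windows (GRCm38.p6, 250 bases before to 50 after each start) that hold such letters are shown here. Windows were found for 37 of the 44 members, 40 windows in all. The letters TGACNNNGC of the antioxidant response element, which NRF1 and NRF2 bind, occurred on either strand in 6 of the 40 windows and in 12.4% of all 32851 windows. The 6 were those of Psmb5, Psmb6, Psmc6, Psmd12, Psmd9 and Psme4. In Psmb5 and Psmb6 the letters, marked by capitals, lay before the start, with their first base 47 and 9 bases before it. The letters TTCNNNGAA of the gamma-activated site, an interferon gamma response element, occurred in 2 of the 40 windows, those of Psmb8 and Psmd2, and in 8.3% of all windows. In Psmb8 they began 97 bases before the start. The interferon-stimulated response element, searched as GAAA, any 2 bases and GAAA again, occurred in 4 of the 40, those of Psmb3, Psmd4, Psmd9 and Psme1, and in 3.44% of all. In Psme1 the match lay after the start on the opposite strand. Each stretch is written 5′ to 3′ on the strand of its gene.
Psmb5, chr14:54618009-54618067, minus strand: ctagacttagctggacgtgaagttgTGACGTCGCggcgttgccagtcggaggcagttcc
Psmb6, chr11:70525323-70525356, plus strand: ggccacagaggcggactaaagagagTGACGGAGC
Psmb8, chr17:34198073-34198131, plus strand: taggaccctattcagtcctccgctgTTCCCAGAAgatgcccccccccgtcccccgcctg
Psme1, chr14:55578493-55578522, plus strand: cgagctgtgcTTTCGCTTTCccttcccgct
The motif CCAAT occurred in 15 of the 40 windows and in 37.4% of all. Both strands were searched for each motif, and matches of different motifs could overlap. A match describes the letters of the window and shows no binding. Windows for Psma8, Psmb1, Psmb2, Psmb7, Psmc3, Psmd3 and Psmd7 were not analysed here.

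Almost all members were expressed in every aorta. Of the 44, 42 reached an FPKM of 1 in at least 3 libraries and were tested. The exceptions were the testis alpha subunit gene Psma8, at 0.301 to 1.15 FPKM from 9 to 34 reads per library, and the thymus subunit gene Psmb11, with 6 reads in CD_1, 1 in HFD_1 and 0 in the other 7 libraries. The members lie on 16 chromosomes, with 9 on chromosome 11 and 6 on chromosome 14. Psmb8 (chr17:34197721-34201454, plus strand) and Psmb9 (chr17:34181988-34187764, minus strand) are neighbours in the MHC region, and Psme1 (chr14:55578123-55581529, plus strand) lies near Psme2 (chr14:55587441-55591113, minus strand). These coordinates are on GRCm38.

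The subunits of one particle were not listed at equal levels. On the deposited FPKM scale, the mean level of the 14 tested constitutive core genes in CD ran from 12.8 for Psmb7 to 69.6 for Psmb4, a ratio of 5.45. FPKM divides by the length of all annotated exons of a gene, and that length exceeds the main transcript of several members. Divided by the length of the principal transcript instead, Psmb7 stood at 37.7 and Psmb6 at 136, and the range of the core ran from 24.6 for Psma2 to 136, a ratio of 5.53. The 17 subunits of the 19S particle ran from 9.81 (Psmd11) to 57.1 (Psmc5) FPKM, a ratio of 5.82, and from 22.0 (Psmd11) to 78.3 (Psmc3) per transcript length, a ratio of 3.56. The order of the members within a group therefore depends on the length used, while the ratio of a member's own levels between groups does not.

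**Figure D1:**
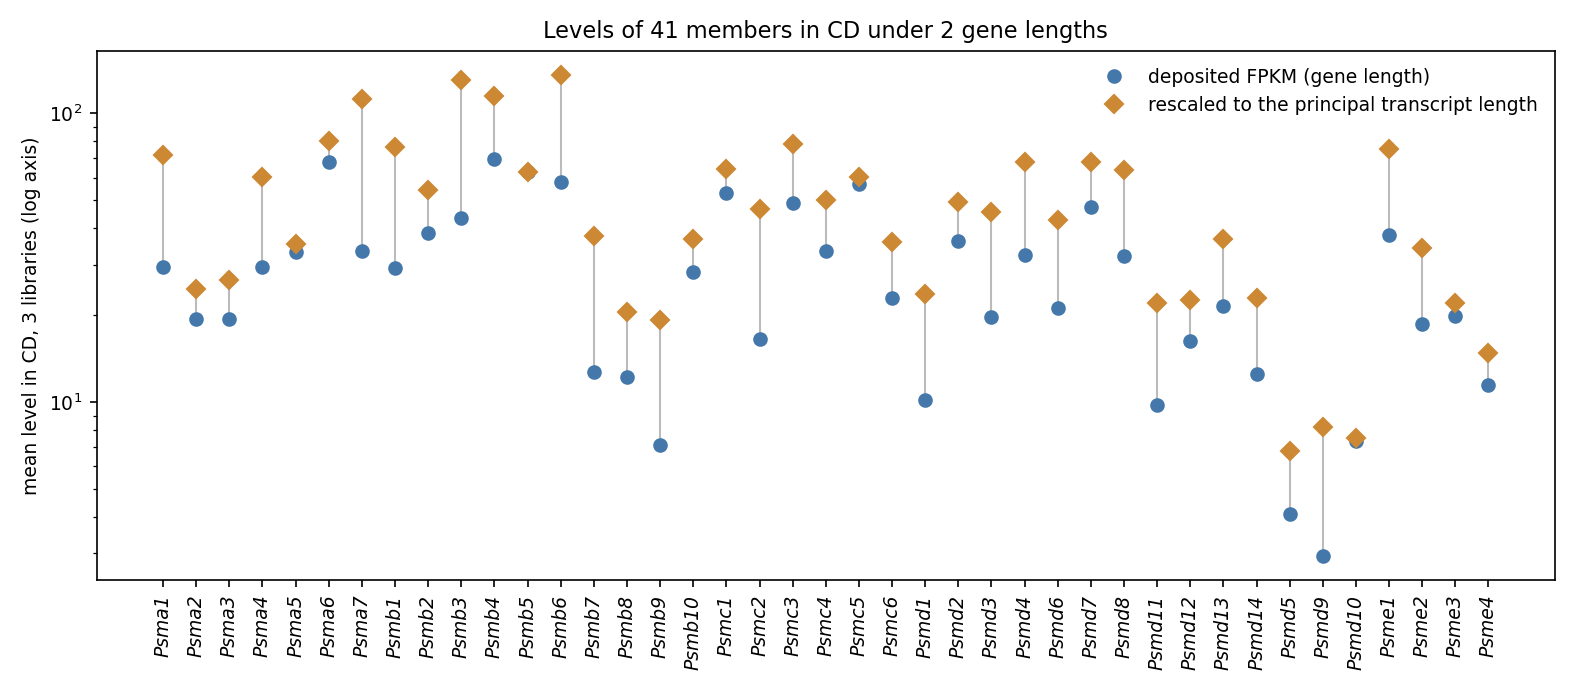
Mean level of 41 members in the 3 CD libraries on a log axis, as deposited FPKM (circles) and rescaled to the principal transcript length (diamonds), with members in the order of their roles. Psmb5 does not move (62.5 on both scales), while Psmb7 moves from 12.8 to 37.7.

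The first comparison asked how aortas on the high fat diet differed from those on chow. Constitutive proteasome genes were higher in HFD across the core, the 19S base and the 19S lid. Of the 42 tested members 29 rose and 0 fell (limma, adjusted p under 0.05), where 21.8% of all tested genes rose and 17.6% fell. At an unadjusted p under 0.05, 33 were higher and 0 lower, where 6850 of all 13883 tested genes passed in either direction. Limma-voom on the recovered reads called 31 members higher and 0 lower, and its share over all genes was not computed. The median log2 change of FPKM + 1 was 0.50 over the members and 0.06 over all tested genes. In 30 members the groups did not overlap with HFD higher, as in 28.2% of all tested genes. The share called changed with the scaling and when cell marker levels were added as covariates. After rescaling to TPM 4 members rose (Psmb6, Psmb7, Psmd8 and Psmd10) and 1 fell (Psme4), where 7.33% of all genes rose and 35.6% fell. That rescaling moved the median change of all genes from 0.06 to -0.30. It divides all genes of a library by the same factor, so the gap between members and all genes could hardly change. The members' median stood above that of all genes by 0.44 on both scales. That gap was 0.26 under quantile normalization, 0.30 with each library's trend on gene length removed and 0.27 with the macrophage level as a covariate.

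Within the core, 5 of 7 alpha genes rose. Psma2 was at 23.2, 16.0 and 19.4 FPKM in CD_1, CD_2 and CD_3, at 31.0, 36.2 and 32.8 in HFD_1, HFD_2 and HFD_3, and at 21.7, 23.6 and 19.8 in the HFD_IO libraries 1, 2 and 3. All HFD libraries lay above all others, and CD and HFD_IO overlapped. Psma2 rose by 0.76 in HFD against CD (log2, SE 0.14, adjusted p = 0.00362), the largest alpha-ring change. Psma6 was at 91.4, 54.2 and 58.4 FPKM in CD, at 94.8, 120.1 and 114 in HFD and at 73.7, 76.6 and 68.7 in HFD_IO. CD_1 came close to the lowest HFD library. It rose by 0.71 (SE 0.19, adjusted p = 0.0172). That call did not survive the omission of CD_2, CD_3 or HFD_2, where adjusted p reached 0.0652. Psma5, Psma7 and Psma4 rose by 0.67, 0.53 and 0.54, the last lost without any of CD_2, CD_3, HFD_2 or HFD_3 (adjusted p up to 0.0952). Psma1 (0.52, adjusted p = 0.0562) and Psma3 (0.33, adjusted p = 0.193) did not pass, and in both CD_1 lay within or above the HFD range. Without CD_1 these were 0.76 (adjusted p = 0.00159) and 0.57 (adjusted p = 0.00907).

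Of the 4 beta genes with no catalytic site, Psmb3, Psmb2 and Psmb4 rose by 0.67, 0.62 and 0.58, and Psmb1 was 0.46 higher (adjusted p = 0.0568). Psmb2 lost its call without CD_2, CD_3 or HFD_3 (adjusted p up to 0.0588). The 3 constitutive catalytic genes all rose, with a median of 0.73.

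Psmb5 (ENSMUSG00000022193, chr14:54614119-54618022), the subunit with chymotrypsin-like activity, was at 58.5, 64.1 and 64.9 FPKM in CD, at 96.6, 91.7 and 93.1 in HFD and at 90.1, 97.0 and 79.5 in HFD_IO. All 6 libraries of the fat-fed groups lay above all CD libraries, and HFD_IO overlapped HFD. The means were 62.5 ± 3.51, 93.8 ± 2.52 and 88.8 ± 8.79 (SD, n = 3), and Psmb5 rose by 0.58 in HFD against CD (SE 0.10, adjusted p = 0.00351). Psmb6 (ENSMUSG00000018286, chr11:70525367-70527858), the caspase-like subunit, was at 57.9, 58.8 and 57.4 FPKM in CD, at 98.9, 97.7 and 94.4 in HFD and at 73.4, 77.3 and 66.9 in HFD_IO. Its 3 groups did not overlap, with HFD highest, HFD_IO between and CD lowest. It rose by 0.73 (SE 0.09, adjusted p = 0.000957). Psmb7 (ENSMUSG00000026750, chr2:38588036-38644087), the trypsin-like subunit, was at 14.0, 11.8 and 12.5 FPKM in CD, at 22.7, 24.2 and 22.9 in HFD and at 16.2, 16.5 and 15.0 in HFD_IO. It held the same order without overlap and rose by 0.82 (SE 0.09, adjusted p = 0.000666), the largest change among the 42 members. The exons of Psmb7 share 405 bases (11.8%) with Nek6 on the opposite strand, and strand was not given, so reads there cannot be assigned.

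**Figure D2:**
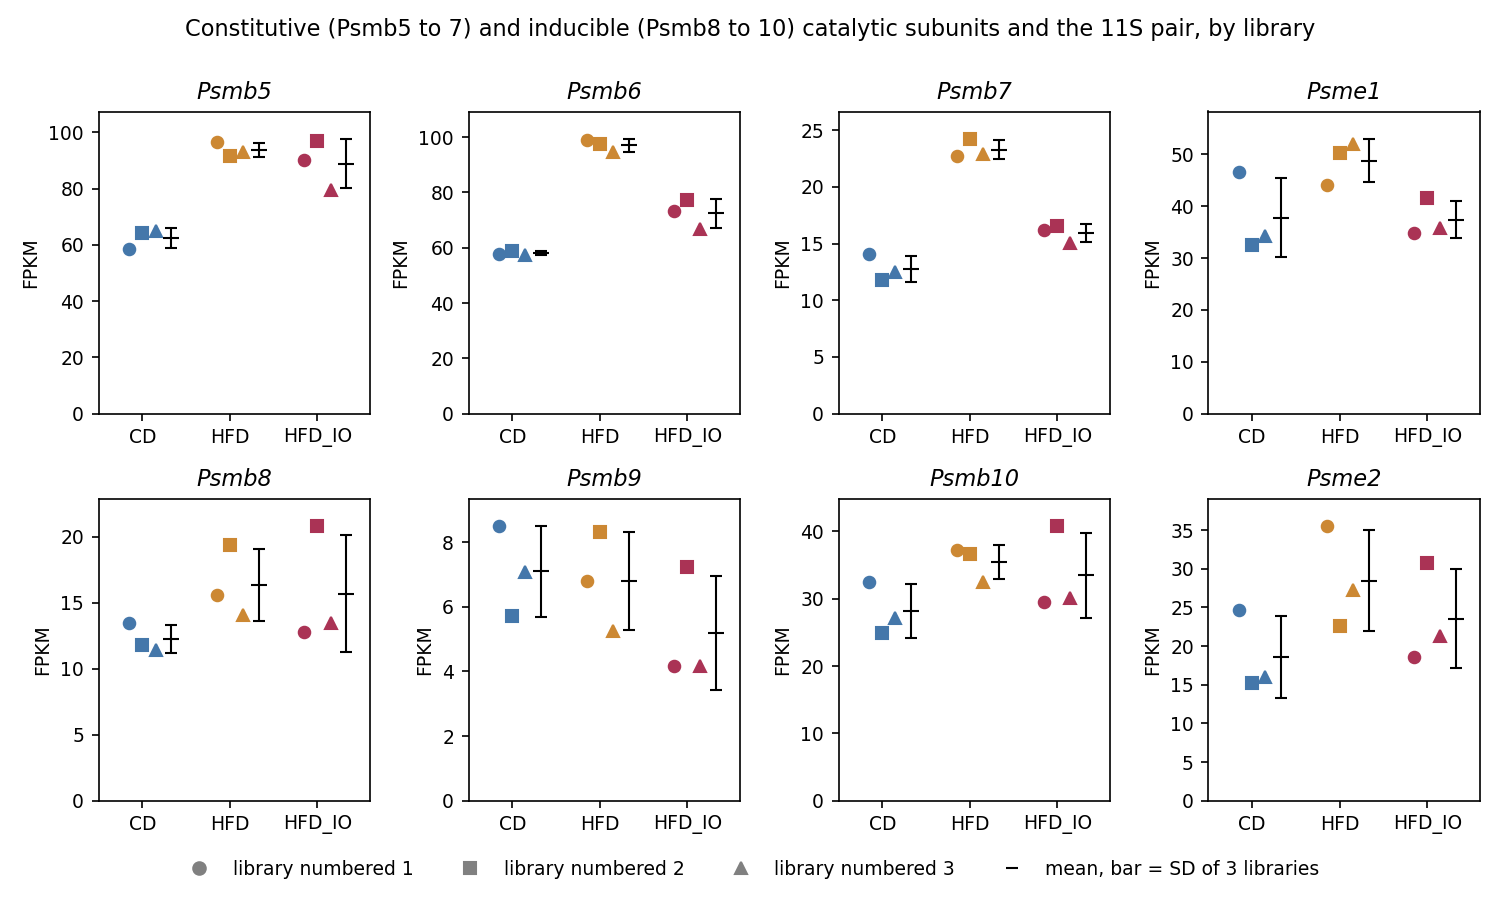
FPKM by library for the constitutive catalytic genes (top row), the inducible catalytic genes (bottom row) and the 11S pair (right), with the mean and SD of 3 libraries per group. Psmb5, Psmb6 and Psmb7 separate CD from HFD, whereas Psmb9 overlaps between all 3 groups.

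The 19S particle followed in most of its subunits. Of the 6 ATPase genes, Psmc3, Psmc5, Psmc1, Psmc4 and Psmc2 rose by 0.61, 0.58, 0.49, 0.47 and 0.43, and each kept its call when any single library was left out. Psmc6 was 0.21 higher (adjusted p = 0.474), with CD_1 at 33.5 FPKM above the 3 HFD libraries (24.3, 26.5 and 25.7). Of the 11 non-ATPase subunits 9 rose. They included Psmd8 (0.70), Psmd6 (0.67), the deubiquitinase Psmd14 (0.66), Psmd12 (0.51), Psmd13 (0.50), the scaffold subunits Psmd2 (0.49) and Psmd1 (0.32), the ubiquitin receptor Psmd4 (0.32) and Psmd7 (0.29). Psmd4 and Psmd7 lost their calls on omission of any single library except CD_1 or HFD_1 (adjusted p up to 0.148 and 0.165), and their direction turned under TPM (-0.06 and -0.10). Psmd3 and Psmd11 differed by 0.06 and 0.14 (adjusted p = 0.636 and 0.284). Psmd14 lost its call without CD_2 or CD_3 (adjusted p up to 0.056), Psmd12 without CD_2, CD_3, HFD_2 or HFD_3 (up to 0.0749), and Psmd1 without HFD_2 (0.0653).

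The 3 chaperones that assemble the 19S base all rose and kept their calls in each single omission. Psmd10, also called gankyrin, was at 8.33, 6.02 and 7.63 FPKM in CD, at 13.1, 14.6 and 12.9 in HFD and at 8.43, 10.1 and 7.67 in HFD_IO. All HFD libraries lay above all others. It rose by 0.81 (SE 0.13, adjusted p = 0.00242), and Psmd5 and Psmd9 rose by 0.50 and 0.47. Psmc3ip rose by 0.43, which did not pass on omission of HFD_2, HFD_3, CD_2 or CD_3 (adjusted p up to 0.0895), and 385 bases (21.2%) of its exons are shared with Mlx on the opposite strand.

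**Figure D3:**
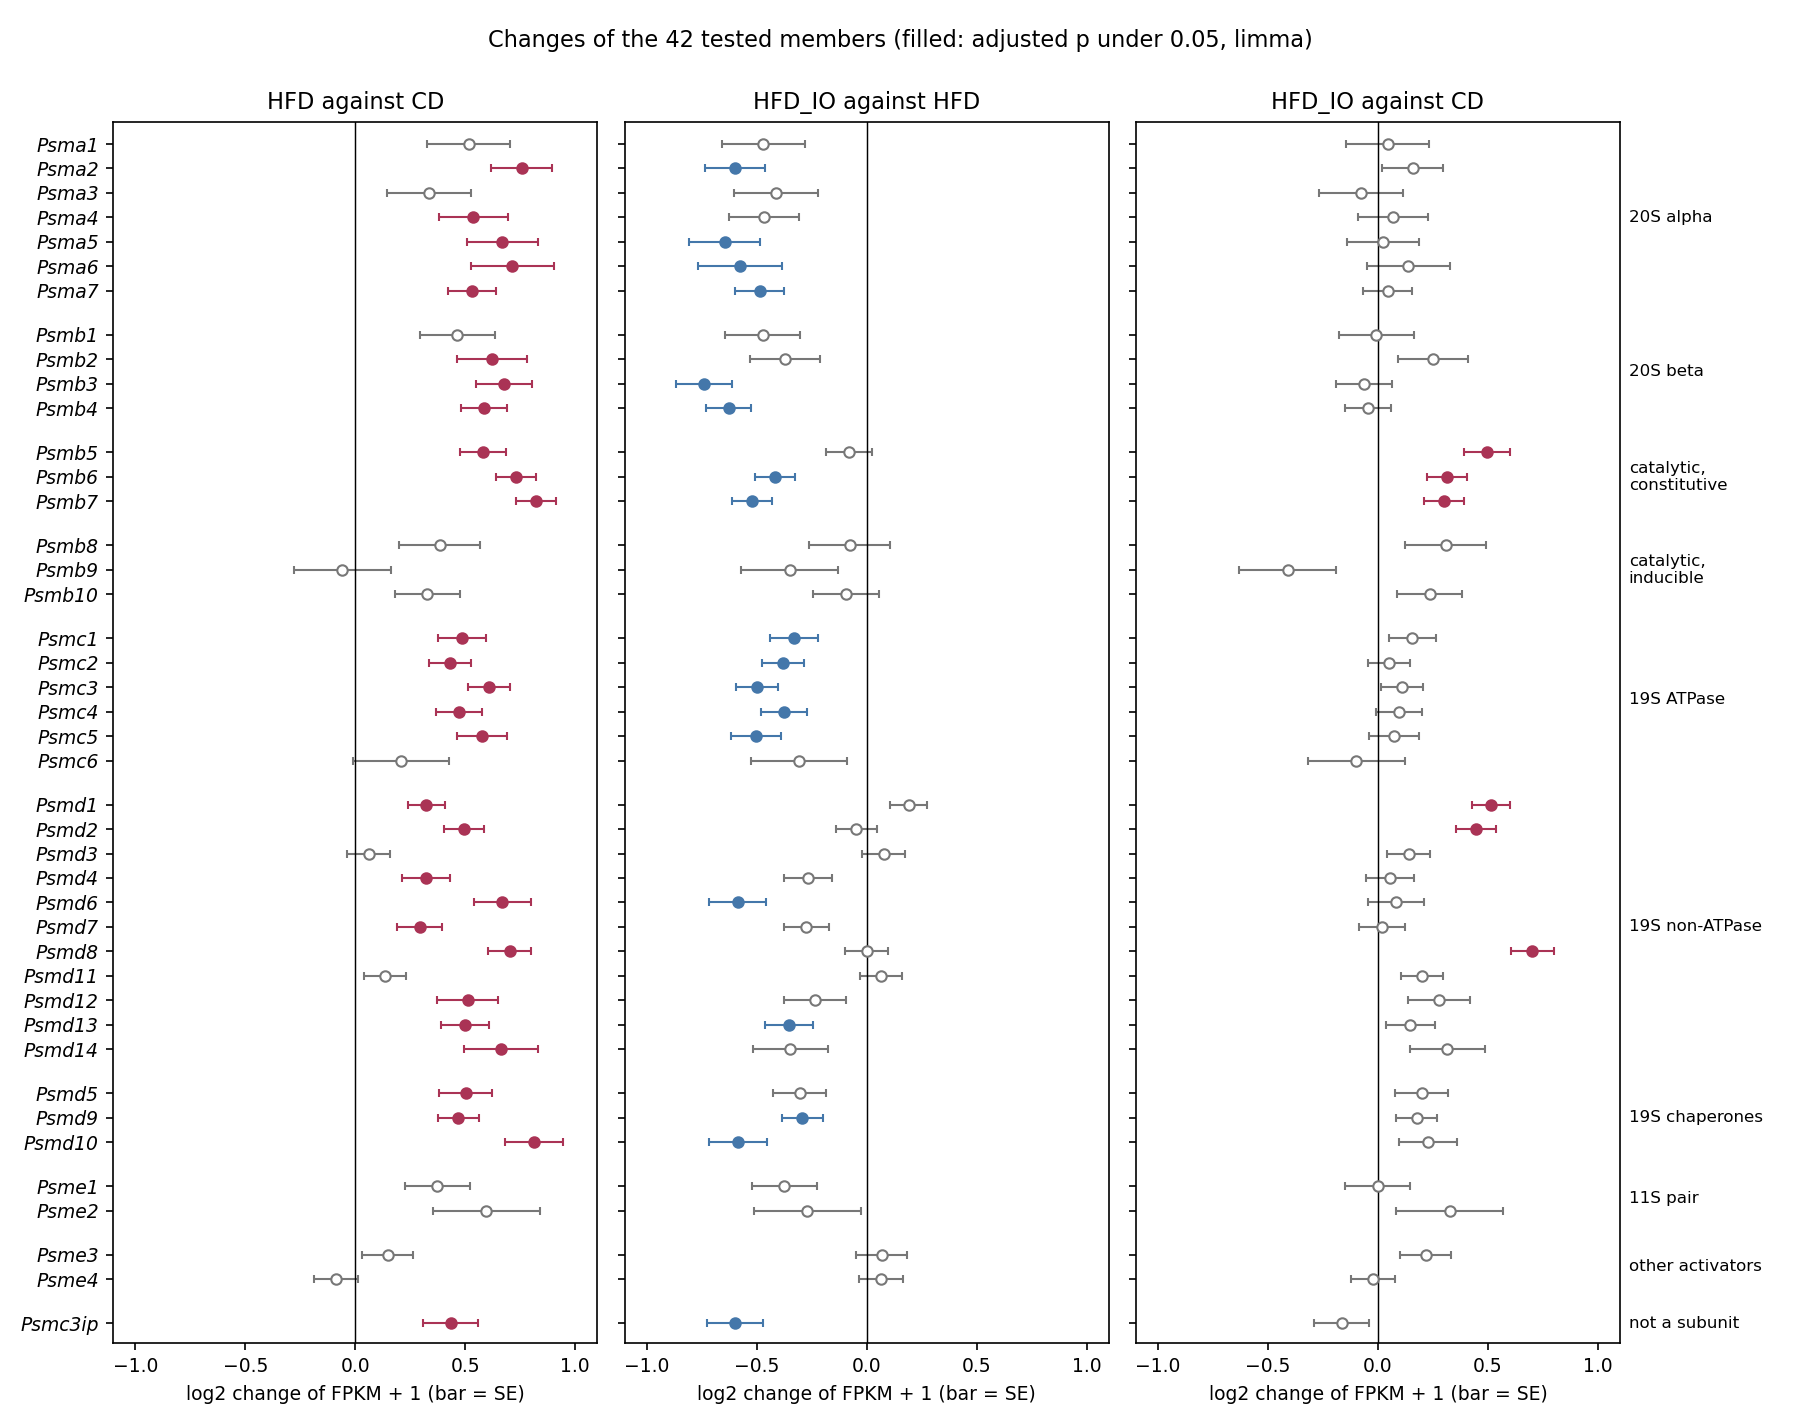
Log2 change of FPKM + 1 with its SE for the 42 tested members in the 3 comparisons, grouped by role, with filled points for an adjusted p under 0.05. In HFD against CD 29 points are filled and all lie to the right, in HFD_IO against HFD 18 are filled and all lie to the left, and in HFD_IO against CD 6 are filled.

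The inducible catalytic genes and the 11S pair were not called in any of the 3 comparisons. Psmb8 (ENSMUSG00000024338), the inducible counterpart of Psmb5, was at 13.5, 11.8 and 11.5 FPKM in CD, at 15.6, 19.4 and 14.1 in HFD and at 12.8, 20.8 and 13.5 in HFD_IO. Every HFD library lay above every CD library, while HFD_IO spanned both. It was 0.38 higher in HFD than in CD (SE 0.18, adjusted p = 0.126, 95% interval -0.03 to 0.80), and 0.38 with adjusted p = 0.0487 when HFD_IO_2 was left out of the shared estimate of spread. Psmb9 (ENSMUSG00000096727), the counterpart of Psmb6, was at 8.50, 5.70 and 7.08 FPKM in CD, at 6.81, 8.30 and 5.26 in HFD and at 4.17, 7.23 and 4.16 in HFD_IO. The 3 groups overlapped. Its difference was -0.06 (SE 0.22, adjusted p = 0.849, 95% interval -0.56 to 0.44), and 212 bases (5.79%) of its exons are shared with Tap1 on the opposite strand. Psmb10 (ENSMUSG00000031897, chr8:105935735-105938444), the counterpart of Psmb7, was at 32.5, 24.8 and 27.1 FPKM in CD, at 37.3, 36.6 and 32.5 in HFD and at 29.5, 40.8 and 30.2 in HFD_IO. CD_1 reached the lowest HFD library. It was 0.33 higher in HFD (SE 0.15, adjusted p = 0.109, 95% interval -0.01 to 0.67), and 0.43 higher without CD_1 (adjusted p = 0.0464). None of the 3 passed an unadjusted p of 0.05 in HFD against CD, and voom called none of them.

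Psme1 was at 46.6, 32.5 and 34.4 FPKM in CD, at 44.1, 50.2 and 52.1 in HFD and at 34.9, 41.6 and 35.8 in HFD_IO. Psme2 was at 24.7, 15.2 and 15.9 FPKM in CD, at 35.5, 22.5 and 27.3 in HFD and at 18.6, 30.8 and 21.4 in HFD_IO. In both genes CD_1 lay inside the HFD range and the other CD libraries below it. They were 0.37 (SE 0.15, adjusted p = 0.0724) and 0.60 (SE 0.24, adjusted p = 0.0802) higher in HFD. Both passed at an unadjusted p under 0.05, neither was called by voom, and without CD_1 the values were 0.53 (adjusted p = 0.00801) and 0.81 (adjusted p = 0.0253).

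Psme3, which encodes a nuclear 11S cap, was at 20.5, 19.5 and 19.7 FPKM in CD, at 18.6, 23.2 and 25.3 in HFD and at 23.3, 24.5 and 22.2 in HFD_IO. Psme4, which encodes the large activator PA200, was at 12.6, 11.3 and 10.6 in CD, at 10.1, 10.2 and 12.1 in HFD and at 11.4, 11.7 and 10.9 in HFD_IO. In both genes the HFD libraries overlapped the CD libraries. The differences in HFD against CD were 0.15 (adjusted p = 0.334) and -0.09 (adjusted p = 0.51), and under TPM Psme4 fell by 0.48 (adjusted p = 0.0051).

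Gene length and cell markers moved with this comparison. Among tested protein-coding genes the median change in HFD against CD was 0.41 in the fifth with the shortest exon length and -0.21 in the fifth with the longest. The tested members had a median exon length of 2804 bases, against 4305 for those genes. With each library's trend on length removed 17 members rose, where 16.6% of all genes did, and the median over all 42 tested members was 0.33. The summed FPKM of white adipocyte markers was 431 to 994 in CD, 1037 to 2776 in HFD and 265 to 1676 in HFD_IO, and that of brown adipocyte markers was 107 to 191, 269 to 572 and 80.5 to 122. With the white adipocyte level as a covariate 10 members rose (8.19% of all genes), and with the skeletal muscle level 7 rose (6.75%). The median change over the tested members was 0.40 and 0.44 with these 2 covariates, against 0.50 without a covariate. With the macrophage level, which nearly follows the groups, 0 of all 13883 genes were called, and 1 member was higher and 2 lower at an unadjusted p under 0.05. Macrophage content and diet cannot be told apart in these groups.

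The second comparison asked what differed when iron was added to the high fat diet. Most constitutive core and ATPase genes were lower in HFD_IO than in HFD. Of the 42 tested members 0 rose and 18 fell (limma, adjusted p under 0.05), where 14.1% of all tested genes rose and 14.5% fell. At an unadjusted p under 0.05, 26 were lower and 0 higher, where 5775 of all 13883 tested genes passed in either direction. Voom called 19 members lower, and its share over all genes was not computed. The median change was -0.36 over the members and -0.00 over all genes, and in 29 members the groups did not overlap with HFD_IO lower, as in 24.4% of all genes. This comparison shares its HFD libraries with the first, so a high or low HFD library enters both with opposite sign.

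In the core, 4 of 7 alpha genes, 2 of 4 non-catalytic beta genes and 2 of 3 constitutive catalytic genes fell. Psmb3, a structural beta subunit, was at 48.3, 38.8 and 42.8 FPKM in CD, at 64.8, 71.1 and 72.7 in HFD and at 46.3, 35.5 and 42.8 in HFD_IO. All HFD libraries lay above both other groups, which overlapped. It fell by 0.74 (SE 0.13, adjusted p = 0.00459). Psma5 was at 42.7, 26.4 and 30.1 FPKM in CD, at 49.6, 51.6 and 55.4 in HFD and at 35.2, 33.6 and 30.3 in HFD_IO. It fell by 0.65 (SE 0.16, adjusted p = 0.0189), a call lost without HFD_3, HFD_IO_2 or HFD_IO_3 (adjusted p up to 0.0632). Psmb4 was at 78.3, 64.4 and 66.0 FPKM in CD, at 102, 107 and 104 in HFD and at 63.9, 68.0 and 69.7 in HFD_IO. HFD again lay above both other groups. Psmb4 fell by 0.63 (SE 0.10, adjusted p = 0.00402).

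Among the catalytic genes, Psmb7 and Psmb6 fell by 0.52 (SE 0.09, adjusted p = 0.00504) and 0.42 (SE 0.09, adjusted p = 0.0114). Psmb5 did not pass: its difference was -0.08 (SE 0.10, adjusted p = 0.586), with a 95% interval of -0.32 to 0.15. The alpha genes Psma2, Psma6 and Psma7 fell by 0.60, 0.58 and 0.49, and Psma6 lost its call on omission of any single library except CD_1, CD_2 or HFD_1 (adjusted p up to 0.136). Of the ATPases, Psmc3 and Psmc5 fell by 0.50 each, and Psmc2, Psmc4 and Psmc1 by 0.38, 0.38 and 0.33. Psmc2 lost its call without HFD_2, HFD_3, HFD_IO_1 or HFD_IO_3 (adjusted p up to 0.0601) and Psmc4 without HFD_2, HFD_3, HFD_IO_1 or HFD_IO_2 (up to 0.0944). Psmc1 lost it on omission of any library except CD_1 or HFD_IO_2 (up to 0.138).

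The 19S non-ATPase subunits fell in 2 of 11 cases, Psmd6 by 0.59 and Psmd13 by 0.35, the latter lost on omission of any library except CD_1 or CD_2 (adjusted p up to 0.122). Psmd8 was at 34.7, 31.0 and 30.6 FPKM in CD, at 53.1, 50.1 and 55.3 in HFD and at 53.7, 55.8 and 49.0 in HFD_IO. The fat-fed groups overlapped, and the 95% interval of their difference was -0.22 to 0.22 (adjusted p = 0.999). Psmd2 differed by -0.05 (95% interval -0.25 to 0.16) and Psmd1 by 0.19 (95% interval -0.00 to 0.38, adjusted p = 0.124). Of the chaperones, Psmd10 fell by 0.58 (adjusted p = 0.0129) and Psmd9 by 0.29 (adjusted p = 0.0443, lost on omission of any library except CD_1 or HFD_2, up to 0.137), and Psmd5 was 0.30 lower (adjusted p = 0.0898). Psmc3ip fell by 0.60.

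None of the inducible catalytic genes was called, with differences of -0.08, -0.35 and -0.09 for Psmb8, Psmb9 and Psmb10, and none passed at an unadjusted p under 0.05 or by voom. Psme1 and Psme2 were 0.37 and 0.27 lower (adjusted p = 0.0878 and 0.433), and Psme3 and Psme4 both differed by 0.07 (adjusted p = 0.684 and 0.646).

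The count of falling members changed when single libraries were left out and when cell marker levels were added as covariates. Without HFD_3 it was 11, and without CD_1, which enters only through the shared estimate of spread, it was 28. The shares of all genes under these omissions were not computed. After rescaling to TPM 9 members fell (8.36% of all genes), and with the length trend removed 10 fell (10.7%). HFD_3 had the highest sum of white adipocyte markers (2776) and of brown adipocyte markers (572). With the white adipocyte level as a covariate Psmb3, Psmb4 and Psmb7 fell (4.13% of all genes). With the skeletal muscle level 0 members passed (2.38%) and 14 were lower at an unadjusted p under 0.05. The median change over the tested members was -0.24 and -0.31 with these covariates, against -0.36 without a covariate. The skeletal muscle sum was 6.07 in HFD_1, 94.9 in HFD_2 and 58.4 in HFD_3, and at most 12.8 in the other 6 libraries.

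In the third comparison, aortas with the diet and iron were set against chow. Of the 42 tested members 6 rose and 0 fell, where 17.5% of all tested genes rose and 15.0% fell, so the share of members was near or below the background. The median change was 0.14 over the members and -0.01 over all genes, and in 9 members the groups did not overlap with HFD_IO higher, as in 24.3% of all genes. The 6 that rose were the catalytic Psmb5, Psmb6 and Psmb7 and the non-ATPase subunits Psmd1, Psmd2 and Psmd8.

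Psmd8 rose by 0.70 (SE 0.10, adjusted p = 0.00071), from 32.1 ± 2.23 to 52.8 ± 3.52 FPKM (SD, n = 3). Psmd1, which scaffolds the 19S base, was at 9.43, 10.7 and 10.3 FPKM in CD, at 12.6, 13.8 and 12.5 in HFD and at 15.3, 15.0 and 14.4 in HFD_IO. Its groups did not overlap, and HFD_IO was highest. It rose by 0.51 (SE 0.09, adjusted p = 0.0019). Psmd2, its partner in the base, was at 33.0, 37.7 and 38.0 FPKM in CD, at 49.0, 52.7 and 52.4 in HFD and at 50.3, 49.3 and 49.5 in HFD_IO. Both fat-fed groups lay above CD. Psmd2 rose by 0.45 (SE 0.09, adjusted p = 0.0055). Psmb5 rose by 0.50 (SE 0.10, adjusted p = 0.00624), and these 4 genes kept their calls in each of the 9 single omissions. Psmb6 and Psmb7 rose by 0.32 (adjusted p = 0.0275) and 0.30 (adjusted p = 0.0337), and both lost their calls without CD_2, CD_3, HFD_IO_1 or HFD_IO_2, with adjusted p up to 0.110 and 0.122. After rescaling to TPM, Psmd8 kept its call and the other 5 lost theirs.

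Psmb9 had the lowest change of the members, -0.41 (adjusted p = 0.19, 95% interval -0.91 to 0.09). Psmb8 and Psmb10 were 0.31 and 0.23 higher (adjusted p = 0.237 and 0.264), and Psme1, Psme2, Psme3 and Psme4 differed by -0.00, 0.33, 0.22 and -0.02, with none called. Without CD_1 the count of rising members was 10, with Psma6, Psmb2, Psmd12 and Psmd14 added, and the share of all genes was not computed.

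Set side by side, the 3 comparisons gave 5 patterns of calls. Taken singly, 21.8% of all tested genes rose in HFD against CD and 14.5% fell in HFD_IO against HFD. These 2 comparisons share the HFD libraries with opposite sign. The share of all tested genes with each pattern was not computed. In 16 members the level rose with the diet, fell with iron on the diet and was not called between HFD_IO and CD. Among them were Psma2, Psmb3, Psmb4, Psmc3, Psmd6, Psmd10 and Psmc3ip, the last no proteasome subunit. Psmb6 and Psmb7 rose, fell and were called above CD. Psmb5, Psmd1, Psmd2 and Psmd8 rose with the diet, were not called with iron and were called above CD. Another 7 were called in HFD against CD alone, and 13 were never called, a set that holds every inducible catalytic gene and every Psme gene. A call in one comparison and none in another does not show that the comparisons differ.

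The ratio of each inducible gene to its constitutive counterpart shows how far the 2 kinds moved apart within a library, and needs no scaling between libraries. The ratio of Psmb8 to Psmb5 in FPKM was 0.230, 0.184 and 0.177 in CD, 0.161, 0.211 and 0.151 in HFD and 0.142, 0.215 and 0.169 in HFD_IO, and the groups overlapped. The ratio of Psmb9 to Psmb6 was 0.147, 0.0970 and 0.124 in CD, 0.0688, 0.0850 and 0.0557 in HFD and 0.0568, 0.0935 and 0.0622 in HFD_IO. Here every CD library lay above the other 6. The ratio of Psmb10 to Psmb7 was 2.32, 2.11 and 2.18 in CD, 1.64, 1.51 and 1.42 in HFD and 1.82, 2.47 and 2.01 in HFD_IO, so every HFD library lay below the other 6. The inducible genes made up 29.5%, 23.9% and 25.3% of the summed FPKM of the 6 catalytic genes in CD, 21.5%, 23.1% and 19.8% in HFD and 20.5%, 26.5% and 22.8% in HFD_IO. HFD lay below CD in every library, and HFD_IO overlapped both. The level of each ratio depends on the gene length used: per principal transcript the mean ratio of Psmb10 to Psmb7 was 0.970, 0.672 and 0.925 in CD, HFD and HFD_IO. The ratios were not tested.

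**Figure D4:**
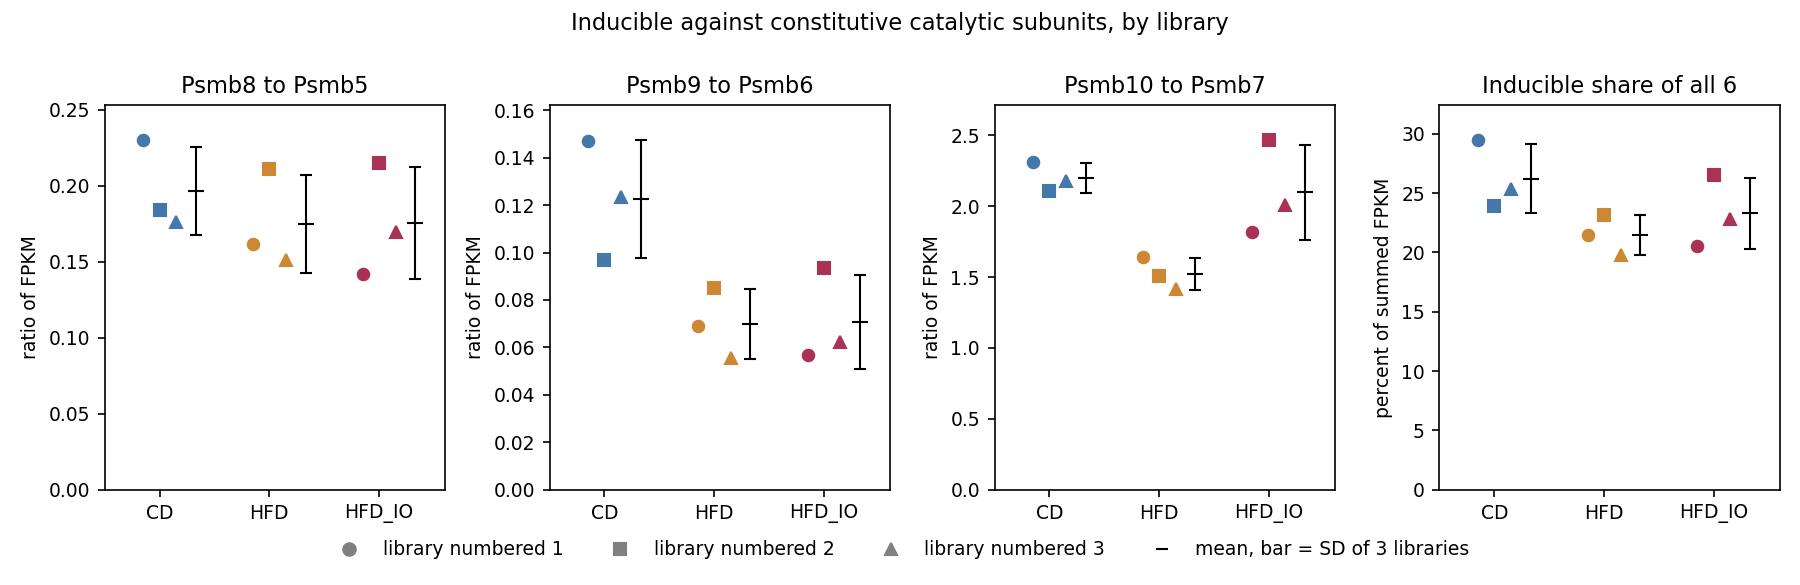
Ratio of each inducible catalytic gene to its constitutive counterpart, and the inducible share of the summed FPKM of all 6, by library with the mean and SD of 3 libraries per group. Psmb9 to Psmb6 is highest in the 3 CD libraries (0.0970 to 0.147), and Psmb10 to Psmb7 is lowest in the 3 HFD libraries (1.42 to 1.64).

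Within CD and within HFD_IO 1 library held the highest value of all 5 immunoproteasome and inducible 11S genes. In HFD the highest values were spread over the 3 libraries. This order was not confined to inducible genes: of all 42 tested members, 34 were highest in CD_1 within CD and 24 in HFD_IO_2 within HFD_IO. Psmb8, Psmb9 and the MHC class I presentation gene Tap1 were highest in CD_1, HFD_2 and HFD_IO_2. Reads in the 212 exon bases that Psmb9 shares with Tap1 cannot be assigned to either gene. Psmb10, Psme1 and Psme2 were also highest in CD_1 within CD and in HFD_IO_2 within HFD_IO, but within HFD Psmb10 and Psme2 were highest in HFD_1 and Psme1 in HFD_3. Of 15 tested interferon-response genes, 14 were highest in CD_1 within CD, 11 in HFD_2 within HFD and 15 in HFD_IO_2 within HFD_IO, where 41.9%, 28.8% and 33.4% of all tested genes were. The chemokine gene Cxcl9 stood at 4.02 FPKM in CD_1 and 5.78 in HFD_IO_2 and at most at 1.23 in the other 7 libraries. The summed FPKM of 8 T and NK cell markers was 30.2, 10.7 and 4.96 in CD, 10.1, 33.4 and 9.11 in HFD and 8.69, 29.9 and 7.88 in HFD_IO. It was highest in the same 3 libraries as Psmb8. The sum of 4 B cell markers was 94.1 in HFD_2 and at most 14.5 elsewhere. Other marker sums shared some of these libraries. The macrophage sum was highest in CD_1 (681), HFD_1 (4988) and HFD_IO_2 (8194) of their groups. The white adipocyte sum was highest in CD_1 (994), HFD_3 (2776) and HFD_IO_2 (1676). The part of lymphocytes, macrophages or adipocytes in the level of the inducible genes was not tested.

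**Figure D5:**
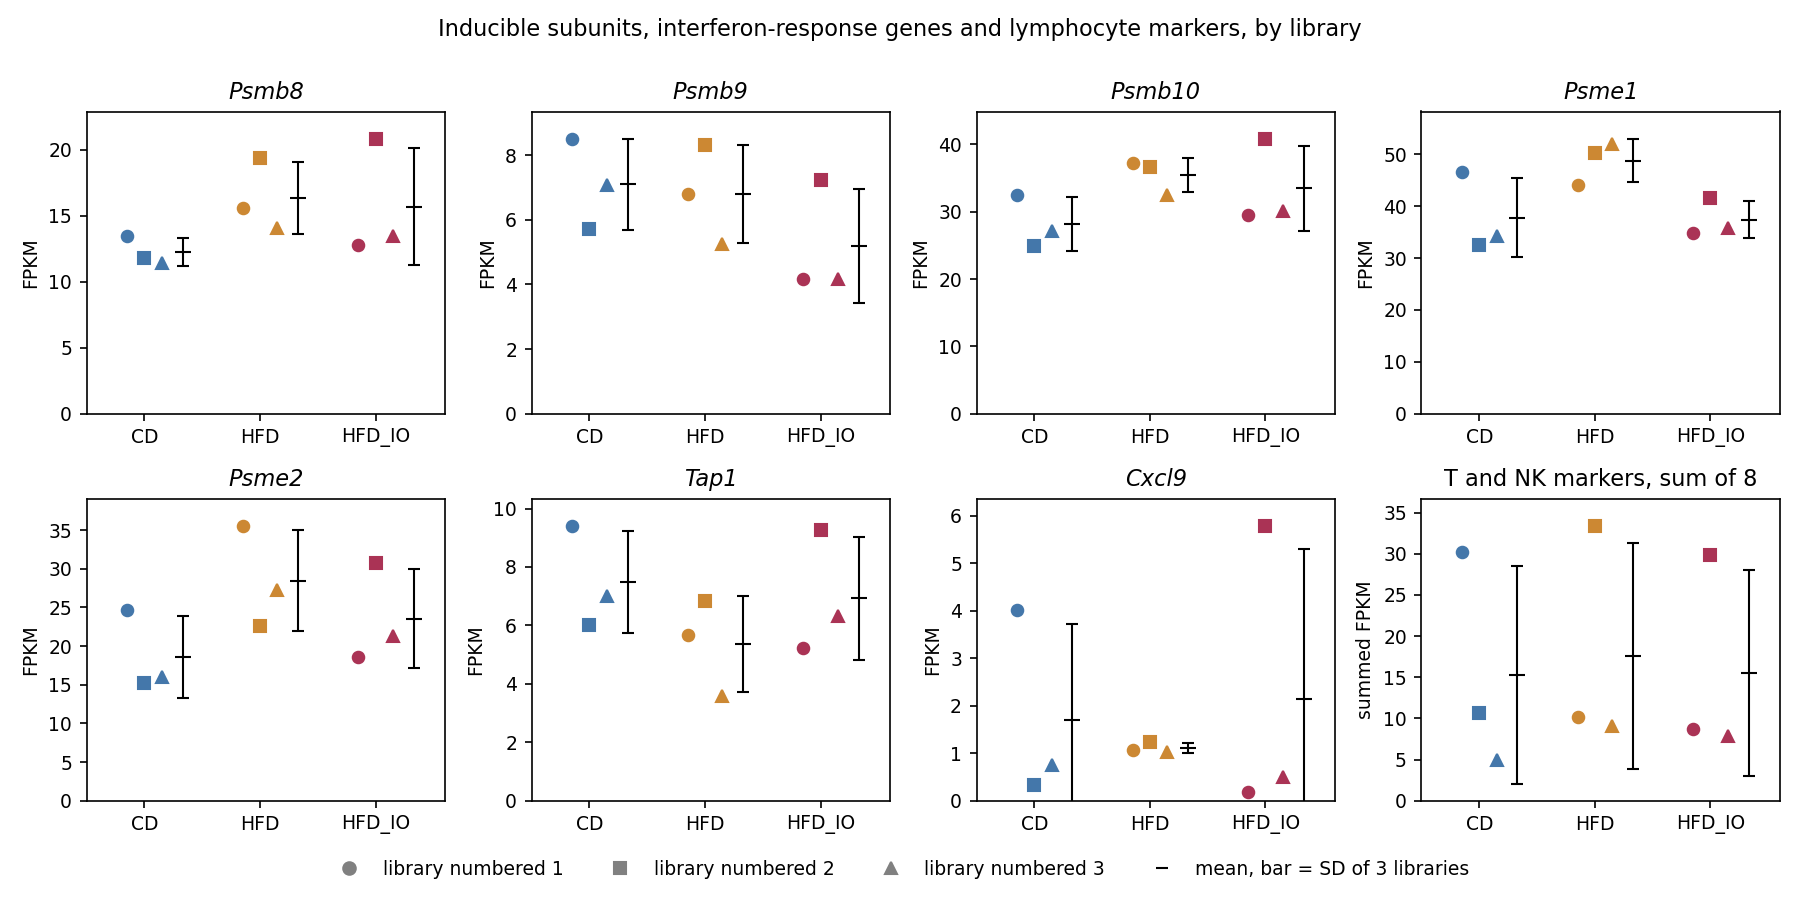
FPKM by library of 5 interferon-inducible proteasome genes, of Tap1 and Cxcl9, and the summed FPKM of 8 T and NK cell markers, with the mean and SD of 3 libraries per group (bars end at 0). CD_1, HFD_2 and HFD_IO_2 have the highest marker sums (30.2, 33.4 and 29.9) and the highest Psmb8 and Psmb9 of their groups.

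Other genes of the pathway were read from lists of non-members. Of all tested genes 21.8% rose in HFD against CD and 14.5% fell in HFD_IO against HFD. In HFD_IO against CD 17.5% rose and 15.0% fell. Of 9 tested genes for further subunits, assembly factors and an inhibitor, 4 rose in HFD against CD: the small 19S subunit gene Sem1 (0.75), the core maturation factor gene Pomp (0.68), the assembly chaperone gene Psmg4 (0.63) and the ubiquitin receptor gene Adrm1 (0.45). In HFD_IO against HFD 5 fell, namely Sem1 by 0.54, Psmg4 by 0.50, Psmg1 by 0.49, Pomp by 0.46 and Adrm1 by 0.31, and in HFD_IO against CD Psmg1 fell by 0.34. Of 14 genes for ubiquitin, its shuttles and deubiquitinases 3 rose with the diet, near the 21.8% of all tested genes. They were the ubiquitin gene Ubb (0.87), the autophagy receptor gene Sqstm1 (0.71) and the shuttle gene Rad23b (0.34). Ubb fell by 0.72 in HFD_IO against HFD. In HFD_IO against CD, Sqstm1 (0.84), Rad23b (0.42) and the unfoldase gene Vcp (0.26) rose.

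Of 5 genes that control proteasome transcription, 1 fell in HFD against CD and 1 rose in each of the other comparisons. Nfe2l1, which encodes NRF1, differed by -0.24, 0.18 and -0.06 in the 3 comparisons (adjusted p = 0.342, 0.507 and 0.838). Ddi2, whose product cleaves NRF1, fell by 0.47 in HFD against CD and rose by 0.61 in HFD_IO against HFD. Nfe2l2, which encodes NRF2, rose by 0.48 in HFD_IO against CD. Of 11 MHC class I presentation genes 0 were called in HFD against CD, at an unadjusted p under 0.05 as well, and Calr rose by 0.41 in HFD_IO against HFD. Of all tested genes 21.8% rose and 17.6% fell in HFD against CD. Near the first share, 3 of 15 tested interferon-response genes rose there, Irf8 (1.55), Ifit3 (0.99) and Isg15 (0.70), and Stat2 fell by 0.50. In HFD_IO against HFD 0 were called and 3 passed at an unadjusted p under 0.05, and in HFD_IO against CD Irf8 rose by 2.30 and Stat2 fell by 0.37.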

How the data were processed

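Messenger RNA was measured by RNA sequencing in 9 aortas. The authors deposited FPKM values, 1 library per column, beside each gene's exon length. The submitters' processing notes name HISAT2 and the human build hg38, but 54409 of the gene identifiers are in the mouse annotation GENCODE M21 (GRCm38), and 98.3% of these have the same coordinates there. The sources used here do not give the counting tool or the strand. Columns carry group names whose numbers the sample labels do not repeat, so each library was assigned to its group only. No column of per-sample values was left unassigned. FPKM times gene length, divided by the value of 1 read in 1 kb in that library, gave whole reads in 100% of values (within 0.05 of a read).

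The 13883 genes that reached an FPKM of 1 in 3 or more libraries were tested on the log2(FPKM + 1) scale. A limma model (version 3.58.1, R 4.3.3) with a mean-variance trend took all 9 libraries and 3 group means. Benjamini-Hochberg adjustment ran over all tested genes, with a threshold of 0.05 on the adjusted p-value. P-values measure the spread between these aortas only. Adding 1 understates the change of low genes.

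Members, gene lists and tests were chosen with earlier results of these data known. Values in every library are given for Psmb5 to Psmb10, Psme1 to Psme4 and, in each comparison, the 3 further members with the largest change past the threshold. Genes of other lists are named by largest change past the threshold, up to 5 of a list. Nfe2l1, Tap1, Cxcl9, the adventitial fibroblast markers and members that did not pass were named after their values were seen. Alternatives changed the pseudocount, filter, scaling, length trend, variance model, covariates and libraries. Voom with TMM scaling on the recovered reads, the transcript lengths and the omission of libraries of the group outside a comparison were added after seeing the data. The fit was tested on simulated data.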

Additional observations from a re-analysis of the deposited data

How the results depend on the processing

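Other pseudocounts, filters, protein-coding genes alone, no variance trend and voom kept each count of called members within 1.5 times. Other settings did not. Members that rose in HFD against CD numbered 4 under TPM (with 1 that fell), 10 under quantile normalization, 17 with the length trend removed, and 10, 7 and 0 with the white adipocyte, skeletal muscle and macrophage covariates. The median change over all 42 tested members was 0.14, 0.26, 0.33 and 0.34 under TPM, quantile normalization, length trend and macrophage covariate. It was 0.40 and 0.44 with the white adipocyte and skeletal muscle covariates. Members that fell in HFD_IO against HFD numbered 9, 8, 10, 3, 0 and 0 under TPM, quantile, length, adipocyte, skeletal muscle and macrophage settings. In the same order the medians over all 42 were -0.22, -0.24, -0.23, -0.24, -0.31 and -0.50. Members that rose in HFD_IO against CD numbered 1 under TPM and 0 with the macrophage covariate, and the median over all 42 was -0.0916, 0.0190 and -0.11 under TPM, quantile and macrophage settings. The cause was not tested.

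Leaving out 1 library at a time, risers in HFD against CD numbered 21 to 36, fallers in HFD_IO against HFD 11 (without HFD_3) to 28 (without CD_1), and risers in HFD_IO against CD 4 to 10 (10 without CD_1). Calls kept in each omission were 20 of 29, 11 of 18 and 4 of 6. The shares of all tested genes under each omission and under quantile normalization are not given here, so those counts have no background. Among members called in a comparison, 8 values changed sign. In HFD against CD, Psmd1 (-0.0419), Psmd4 (-0.0629) and Psmd7 (-0.0959) did so under TPM, Psmd7 (-0.0320) under quantile normalization and Psmd10 (-0.00625) with the macrophage covariate. In HFD_IO against CD, Psmb5 (-0.30), Psmb6 (-0.37) and Psmb7 (-0.0603) did so with the macrophage covariate. Psmb6, Psmb7, Psmd8 and Psmd10 kept their call in HFD against CD under every alternative run except that covariate. Of 1604 values of members not called in a comparison, 131 changed sign under an alternative.

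The planned edgeR and DESeq2 tests were not run; voom on the recovered reads was run in their place. No paired analysis was possible because the columns' numbers are not tied to the samples and the labels give no shared replicate numbers. Read counts were lowest for Psma8 and Psmb11, which were not tested, and next for Psmc3ip. Psmc3ip had 41 to 89 reads per library and was called in HFD against CD and in HFD_IO against HFD. Strand is unknown, so reads from exons shared with a gene on the opposite strand cannot be assigned.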

Other observations

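Exon overlaps touch a few members. Exons of Psmc3 share 215 bases (8.25%) with Slc39a13, those of Psmd13 share 342 bases (10.1%) with Sirt3, and those of Psmd1 share 252 bases with Htr2b, each on the opposite strand and each partner expressed. The partner of Psmb8, Psma4 or Psma5 on the opposite strand had at most 3 reads in any library. The table also lists 4 pseudogenes of members, and none had more than 1 read in any library.

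The group with the highest mean was HFD for 35 of the 42 tested members, HFD_IO for 5 and CD for 2. The shares of all tested genes by highest group were not computed. Within HFD_IO, 24 of the 42 were highest in HFD_IO_2, as were 33.4% of all tested genes. Within HFD 27 of the 42 were lowest in HFD_1, where the share of all genes was not computed. The mean log2 level of the members was 4.72 in CD_1 against 4.41 and 4.45 in the other CD libraries.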
